A study of Mus musculus with 10 samples.

Results

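Annexins and S100 proteins are small families of calcium-dependent proteins that work at membranes, and 10 of their genes were followed here through microglia kept in different ways. The set comprised 5 annexins (Anxa1, Anxa2, Anxa3, Anxa4 and Anxa5) and 5 S100 genes (S100a1, S100a4, S100a6, S100a10 and S100a11). They were taken by symbol, 10 of the 18292 symbols in the count tables. The set was chosen by the measured level of Anxa1 in vitro over slices. In all kept cells that log2 difference was 6.70 over slice 3 weeks, but 0.03 over slice 1 day and -0.45 over slice 1 week. All 10 passed the filter on low counts, as did 12157 genes in all. In vitro over slice values, and all values of Anxa1, whose in vitro and slice libraries the choice used, are therefore given as descriptions without a test.

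Single cells were sequenced from C57BL/6 mouse microglia in 5 groups of 2 libraries each. All were sorted as live, CD11b high and CD45 intermediate cells. Adult microglia came fresh from the brains of untreated adult mice. Slice microglia came from coronal brain slices of neonatal pups kept on a membrane for 1 day, 1 week or 3 weeks, and slices were pooled where needed. In vitro microglia were shed into the medium of mixed glial cultures made from neonatal brain and were collected at 3 weeks. Adult cells thus differed from all cultured cells in the age of the donor as well as in culture, and these cannot be told apart. Nothing in the labels says which animals or cultures were shared, so p-values measure the spread between these libraries.

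Annexins bind negatively charged membrane lipids when calcium rises, and take part in membrane repair, vesicle traffic and the handling of dying cells. S100 proteins are small EF-hand proteins that pair up and bind target proteins, several of them annexins. S100a10 is an exception in that it no longer needs calcium, and with Anxa2 it forms a complex at the inner face of the plasma membrane. Anxa1 is induced by glucocorticoids and is released as a ligand of the formyl peptide receptors, which dampens inflammation. In myeloid cells Anxa1, S100a6 and S100a11 are also known as products of neutrophils, beside the neutrophil alarmins S100a8 and S100a9.

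The libraries held 61 to 3799 kept cells and 385373 to 39689540 UMIs (unique molecular identifiers, 1 per captured transcript end). Slice 1 week was the thinnest group, with 148 and 61 cells. At most 3.28% of the barcodes of a library recurred in another. All 10 microglial markers of the list had UMIs in every library, but their summed level ran from 65590 and 66420 CPM (UMIs scaled to a common library total) in the adult to 11420 and 12820 CPM at slice 1 day. Cells with at least 2% of their UMIs from 10 neutrophil genes, called neutrophil-marked here, numbered 68 and 110 at slice 1 day and 24 and 1 at slice 1 week, and there were none in the other 6 libraries. Up to 12 cells a library lay between 1% and 4%, near that limit. Stefin A genes were among the leading genes of these cells by fold over the other cells. The monocyte markers summed to 320.1 and 616.4 CPM at slice 1 day and 1182 and 10.4 at slice 1 week, against at most 7.27 elsewhere. Over the 2 slice 1 day libraries and the first slice 1 week library Chil3 (6.29, 183.5 and 752.0 CPM), Ly6c2, Hp and Vcan of that list rose. Ccr2 (24.6, 17.7 and 18.8) and Plac8 (95.7, 91.5 and 39.5) were instead highest in the first of these libraries. UMIs of S100a8 or S100a9 also lay in other cells. Of the remaining microglia-marked cells, 92.7% and 100% at slice 1 day and 100% and 37.7% at slice 1 week held such a UMI. In the other 6 libraries 0.11% to 2.71% did. These UMIs are treated below as free neutrophil RNA, which was not told apart from expression by the cells or from doublets. A further class, called marker-poor, had under 0.5% of its UMIs from the microglial list and held 80 and 112 cells at slice 1 day, 10 and 7 at slice 1 week and 0 to 102 elsewhere. Hemoglobin genes led it by fold in the first slice 1 day library and Cxcl2 in the second. Plac8 of the monocyte list was among its 10 leading genes in both (454.4 and 352.6 CPM, against 31.05 and 33.2 in microglia-marked cells). Hp of that list was among them in the first (252.3 against 24.9). Up to 331 cells a library lay near the limit of this class, so it is given no cell type name. Results that rest on these cells are given with and without them.

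Of the 9 genes tested, 6 to 8 were called higher in each of the 4 kinds of culture than in adult microglia. Levels are CPM scaled by trimmed mean of M values (TMM), and a gene was called where edgeR's quasi-likelihood test gave a Benjamini-Hochberg adjusted p under 0.05 and a fold above 1.5. In vitro over adult, 8 were higher and none lower, where 22.4% of all genes tested were called higher and 28.5% lower. At slice 1 day 8 were higher and 1 lower, against 24.9% and 25.3% of all genes. Slice 1 week gave 7 higher and none lower (15.0% and 13.6% of all genes). Slice 3 weeks gave 6 higher and none lower (17.9% and 17.5%). In these 4 comparisons the 9 genes had median log2 fold changes of 3.87, 3.00, 3.00 and 2.40, and all genes together had medians between -0.11 and -0.03. The 4 comparisons share the 2 adult libraries. In the plot of levels by library the adult points lie below every cultured point except for Anxa3, S100a10 and S100a11.

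**Figure D1:**
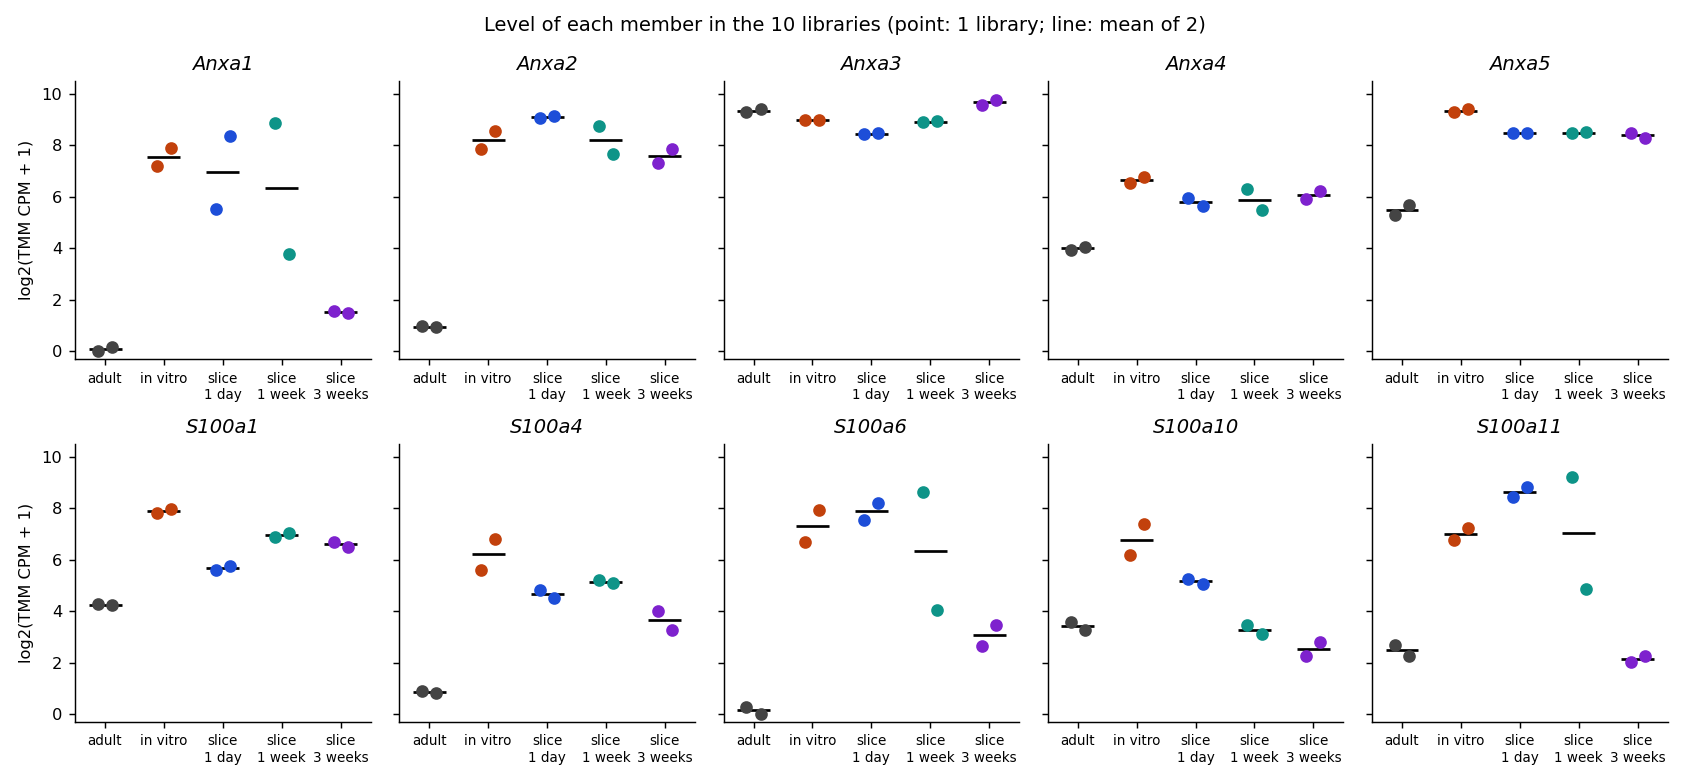
Level of the 5 annexins (upper row) and 5 S100 genes (lower row) as log2(TMM CPM + 1), with 1 point per library, the groups along the x axis and a line at the mean of the 2 log2 values. Anxa4, Anxa5 and S100a1 lie above the adult in every culture, Anxa3 stays high throughout, and Anxa1, S100a6 and S100a11 spread widely at slice 1 week and are low at slice 3 weeks.

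Anxa2, Anxa4 and Anxa5 rose in all 4 cultures and remained called under every alternative tried, with 1 exception for Anxa4. Anxa2, the plasma membrane annexin that partners S100a10, was close to absent from adult microglia. It stood at 0.95 and 0.90 CPM (13 and 7 UMIs) in the adult, 233.8 and 380.8 in vitro, 528.1 and 557.6 at slice 1 day, 425.9 and 202.1 at slice 1 week, and 157.3 and 233.9 at slice 3 weeks. Every cultured library lay far above both adult ones, and slice 1 day was highest. The log2 fold change over adult was 8.35 ± 0.48 (SE, adjusted p = 3.8e-07) in vitro, 9.17 ± 0.49 (8.1e-07) at 1 day, 8.41 ± 0.49 (2.5e-06) at 1 week and 7.70 ± 0.48 (2.7e-06) at 3 weeks, by edgeR. At slice 1 day Anxa2 was at 978.8 and 1027 CPM in neutrophil-marked cells and 495.7 and 479.8 in microglia-marked cells (summed cells of a class, not TMM-scaled). Its log2 fold change over adult in microglia-marked cells alone was 9.05 ± 0.42 at slice 1 day and 8.18 ± 0.42 at slice 1 week.

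Anxa5, which binds phosphatidylserine exposed on dying cells, had 38.4 and 50.9 CPM in adult microglia and 627.3 and 676.4 in vitro. In slices the level was 356.2 and 355.1 after 1 day, 351.8 and 363.3 after 1 week, then 359.1 and 315.1 after 3 weeks. The slice groups overlapped, their fitted folds over adult were 7.57 to 8.02, and in vitro (14.6) lay higher still. Log2 fold changes over adult were 3.87 ± 0.18 in vitro (adjusted p = 1.0e-07, edgeR) and between 2.92 ± 0.17 and 3.00 ± 0.18 in the 3 slice groups (adjusted p from 1.3e-06 to 2.5e-06). Among slice ages the gene did not differ beyond the spread of the libraries. The log2 difference between 3 weeks and 1 day was -0.08 ± 0.16, and its sign turned under 2 of 26 alternatives. Its 95% interval, taken from the normal distribution, was -0.39 to 0.24, narrower than a t distribution would give.

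Anxa4, an annexin that promotes membrane aggregation, followed the same course at a lower level. Adult libraries gave 14.3 and 15.7 CPM, in vitro 90.9 and 108.9, slice 1 day 60.3 and 48.8, slice 1 week 78.1 and 43.5, and slice 3 weeks 59.4 and 74.2. Its log2 fold change was 2.74 ± 0.22 in vitro (adjusted p = 3.7e-06), 1.86 ± 0.22 at 1 day (7.1e-05), 2.12 ± 0.26 at 1 week (0.00024) and 2.16 ± 0.22 at 3 weeks (5.5e-05) by edgeR. The 3 slice groups overlapped one another. The exception named above was slice 1 week without cells bearing 3 neutrophil or 3 monocyte markers, which left 1 library in that group (1.58, adjusted p = 0.055). In this and every other fit that leaves a group 1 library, that library is assumed to vary like those of the other groups.

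Anxa3 behaved unlike the other 9 and was the only one abundant in adult microglia. Its 2 adult libraries held 630.5 and 677.2 CPM, 87.6% and 87.3% of all UMIs of the set there. Values were 510.6 and 503.8 in vitro, 344.4 and 357.1 at slice 1 day, 478.3 and 486.1 at slice 1 week, and 766.7 and 867.6 at slice 3 weeks. The groups did not overlap, with slice 1 day lowest and slice 3 weeks highest. Only slice 1 day was called against adult, at -0.90 ± 0.14 on the log2 scale (adjusted p = 0.00031, edgeR). In vitro (-0.37 ± 0.13, adjusted p = 0.038), 1 week (-0.44 ± 0.14, 0.034) and 3 weeks (0.32 ± 0.13, 0.080) missed the fold limit or the p limit. These are shares of a library's RNA: counted as UMIs per cell with no scaling for depth, where the median gene rose by 1.05 to 2.04 over adult, Anxa3 was above adult in all 4 groups, by 1.82 in vitro (adjusted p = 6.9e-06, called), 0.66 at slice 1 day (0.11), 0.77 at 1 week (0.092) and 1.43 at 3 weeks (0.00087, called).

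S100a1 and S100a4 rose in every culture. S100a1, best known as a calcium sensor of heart and skeletal muscle, had 18.5 and 17.6 CPM in the adult, 225.6 and 247.3 in vitro, 47.2 and 52.4 at slice 1 day, 115.6 and 130.5 at slice 1 week, and 101.9 and 89.3 at slice 3 weeks. The 2 libraries of each group were close and no groups overlapped. Log2 fold changes were 3.71 ± 0.15 (adjusted p = 5.4e-08), 1.47 ± 0.15 (2.4e-05), 2.75 ± 0.16 (2.5e-06) and 2.40 ± 0.15 (2.7e-06) in the same order, by edgeR. S100a4, which binds nonmuscle myosin and is tied to cell motility, was rare in the adult at 0.88 and 0.77 CPM (12 and 6 UMIs). It reached 47.4 and 110.7 in vitro, 27.5 and 21.7 at slice 1 day, 35.6 and 33.3 at slice 1 week, and 15.0 and 8.62 at slice 3 weeks. All cultured libraries lay above the adult ones, by 6.54 ± 0.52 (adjusted p = 3.3e-06), 4.84 ± 0.54 (4.5e-05), 5.36 ± 0.66 (0.00026) and 3.76 ± 0.55 (0.00046) on the log2 scale.

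Marker-poor cells carried more S100a4 than microglia-marked cells. At slice 1 day they had 109.1 and 96.8 CPM of S100a4 (summed cells of a class again), against 14.7 and 16.1 in microglia-marked cells, and held 58.1% and 38.4% of its UMIs. Neutrophil-marked cells had 5.83 and 2.69. Anxa4 (150.3 and 88.45 CPM, against 49.8 and 49.4 in microglia-marked cells) and Anxa5 (627.9 and 613.2, against 341.9 and 352.9) were also highest in marker-poor cells there. Without both other classes S100a4 at slice 1 day was still 4.23 ± 0.55 above adult (adjusted p = 8.5e-05, edgeR).

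S100a10 rose with its partner Anxa2 at slice 1 day, but unlike Anxa2 it was not above adult at 1 week and 3 weeks. The difference between the 2 genes was not tested. S100a10, also named p11, was present in adult microglia at 10.99 and 8.50 CPM. In vitro it rose to 70.7 and 165.5 CPM, and at slice 1 day to 36.7 and 32.4. At slice 1 week it stood at 9.88 and 7.68 CPM (10 and 3 UMIs), and at slice 3 weeks at 3.75 and 5.96, below both adult libraries. The gene was higher than adult in vitro (3.58 ± 0.37, adjusted p = 1.9e-05) and at slice 1 day (1.80 ± 0.37, 0.0021). The slice 1 week value was -0.10 ± 0.69 (0.95) and that of 3 weeks was -0.95 ± 0.39 (0.078). The last passed as lower under 4 alternatives (library size alone, no filter, and without either in vitro library) and was 0.05 counted per cell. Neutrophil-marked cells held almost none of it (0 and 5.37 CPM at slice 1 day), while marker-poor cells had 107.3 and 120.7 against 27.3 and 26.4 in microglia-marked cells. In microglia-marked cells alone S100a10 was 1.47 ± 0.40 over adult at slice 1 day (adjusted p = 0.0091, edgeR) and -0.96 ± 0.91 at 1 week (0.48).

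Adult microglia had 1154 and 943 S100a10 UMIs per 100 Anxa2 UMIs, the reverse of every culture. The exact 95% counting intervals were 655 to 2218 and 433 to 2436. In vitro libraries had 30.2 and 43.5, slice 1 day 6.95 and 5.82, slice 1 week 2.32 and 3.80, and slice 3 weeks 2.38 and 2.55. Tags are counted at transcript ends, so length does not enter the ratio, although capture can differ between genes. The plot of this ratio shows the adult above 100, in vitro next, and the slices lowest, with no overlap between adult, in vitro and slices. In microglia-marked cells alone the ratio was 5.51 and 5.5 at slice 1 day, 2.17 and 0 (over 276 and 68 Anxa2 UMIs) at slice 1 week, and 2.23 and 2.51 at slice 3 weeks. Intervals cover counting error only.

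**Figure D2:**
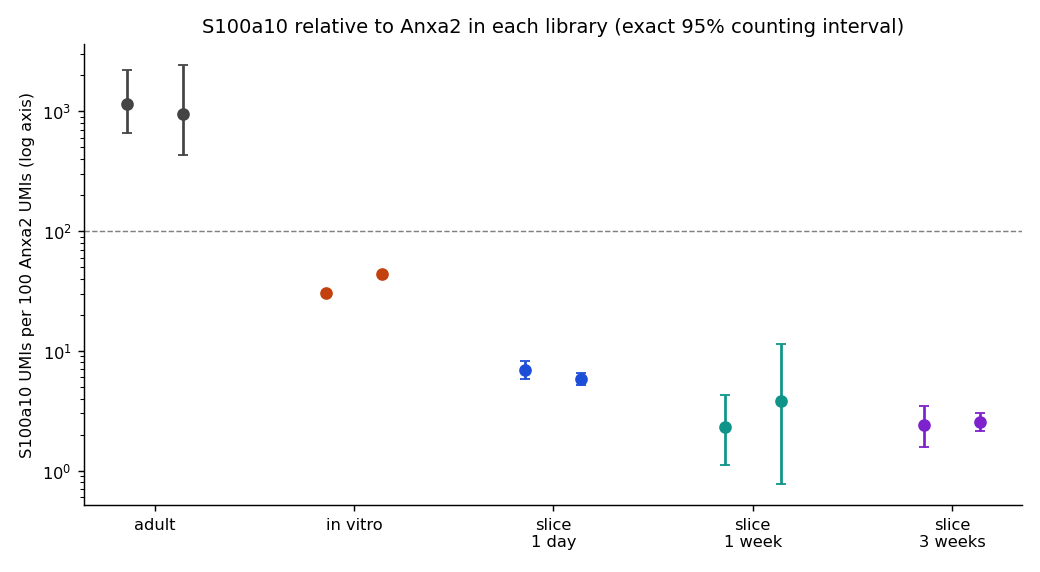
S100a10 UMIs per 100 Anxa2 UMIs in each of the 10 libraries on a log axis, with exact 95% counting intervals and a dashed line at 100. Adult libraries lie at 943 and 1154, in vitro at 30.2 and 43.5, and the 6 slice libraries between 2.32 and 6.95.

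Anxa1, S100a6 and S100a11 shared another pattern, high in vitro and in early slices, low at slice 3 weeks. Anxa1 had 0 and 1 UMI in the adult (0 and 0.13 CPM), 147.4 and 235.7 CPM in vitro, 45.6 and 326.2 at slice 1 day, 472.3 and 12.8 at slice 1 week, and 1.94 and 1.77 at slice 3 weeks. The 2 libraries of slice 1 day and those of slice 1 week thus differed widely, and slice 3 weeks lay far below in vitro. Pooled UMI ratios to adult were 4167 in vitro (exact 95% interval 748 to 164600), 5290 at 1 day (949 to 209000), 7374 at 1 week (1317 to 291900) and 38.9 at 3 weeks (6.68 to 1564), all resting on a single adult UMI. The fitted log2 values over adult were 11.70 ± 1.96 at 1 day, 12.18 ± 1.97 at 1 week and 5.03 ± 2.96 at 3 weeks, and depend on the prior count. Without the first slice 1 week library the 1 week value was 7.87.

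S100a6, or calcyclin, had 3 and 0 adult UMIs (0.22 and 0 CPM). It stood at 102.1 and 243.2 CPM in vitro, 186.4 and 291.6 at slice 1 day, 389.3 and 15.4 at slice 1 week, and 5.30 and 10.0 at slice 3 weeks. Every cultured library was above the adult. Pooled ratios to adult were 1266 in vitro (433 to 6142), 1870 at 1 day (639 to 9070), 2036 at 1 week (692 to 9913) and 62.6 at 3 weeks (21.2 to 305.5). All 4 comparisons passed in edgeR, with adjusted p = 0.00015, 0.00014, 0.00044 and 0.016. The 1 week call was lost without the first slice 1 week library (6.73, adjusted p = 0.065). The 3 weeks call (5.75 ± 1.60) was lost without the first adult library (9.70), the second adult library (5.12) or the second slice 3 weeks library (5.21). It was also lost with only the 8 libraries of 1 study label (10.12). Each of these fits leaves 1 library in a compared group.

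S100a11, which binds Anxa1 and Anxa2, had 5.49 and 3.74 CPM in the adult and 106.1 and 150.6 in vitro. It had 343.4 and 456.0 at slice 1 day, 592.9 and 28.1 at slice 1 week, and only 3.10 and 3.82 at slice 3 weeks, where it overlapped the adult. Log2 fold changes were 4.76 ± 0.88 in vitro (adjusted p = 0.00099), 6.40 ± 0.94 at 1 day (0.00026), 6.12 ± 0.93 at 1 week (0.00086) and -0.41 ± 0.91 at 3 weeks (0.75), by edgeR. The 1 week value was 2.60 (0.021) without the first library of that group. The 3 weeks value turned to 0.61 counted per cell and 0.03 with the 8 libraries of 1 study label.

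Most UMIs of these 3 genes in the early slices lay in neutrophil-marked cells. Of the Anxa1 UMIs, 74.7% and 81.7% at slice 1 day and 93.1% in the first slice 1 week library were in them. For S100a6 the shares were 61.9%, 53.6% and 83.0%, and for S100a11 64.3%, 68.1% and 90.2%. Those cells held 4.69%, 7.81% and 13.7% of all UMIs of the same libraries. In contrast, they held 0.44%, 3.66% and 7.58% of the Anxa5 UMIs and 8.34%, 14.1% and 32.7% of those of Anxa2.

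Within microglia-marked cells the levels were far lower in the 3 libraries with at least 10 neutrophil-marked cells, and moved less in the second slice 1 week library, which had 1 such cell (S100a11 from 28.1 to 13.9, Anxa1 from 12.8 to 11.1). Anxa1 was at 7.64 and 58.8 TMM CPM at slice 1 day and at 36.2 and 11.1 at slice 1 week. S100a6 was at 40.5, 103.3, 71.1 and 11.1, and S100a11 at 71.8, 104.4, 66.5 and 13.9 in the same 4 libraries. Log2 fold changes over adult in these cells were 9.35 ± 1.27 for Anxa1, 9.01 ± 1.02 for S100a6 (adjusted p = 3.2e-05) and 4.29 ± 0.39 for S100a11 (8.0e-06) at slice 1 day, the last 2 still called by edgeR. At 1 week S100a6 was at 8.42 ± 1.21 (adjusted p = 0.00048, edgeR) and S100a11 at 3.38 ± 0.49 (0.00049). In all, 8 of the 9 genes tested were higher and 1 lower at slice 1 day (26.0% and 24.0% of all genes), and 7 higher and none lower at 1 week (14.1% and 11.2%). The level that free neutrophil RNA would give, scaled from S100a8 and S100a9, was 36.6%, 105.6% and 194.4% of the Anxa1 level left in the 3 libraries. It was 23.3%, 35.2% and 72.6% for S100a6, and 25.2%, 69.2% and 128.5% for S100a11. For Anxa2 it was at most 6.9%, and for the other 6 genes at most 4.9%.

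Where that amount exceeded the level, the scaling overshot it and the subtracted count was set to 0. This was so for Anxa1 in the second slice 1 day and the first slice 1 week library and for S100a11 in the latter, so no test of those values is given. S100a6 still passed over adult at both ages (8.48 ± 0.83, adjusted p = 9.3e-06, and 6.87 ± 1.35, 0.0032, edgeR), and S100a11 did at slice 1 day (3.21 ± 0.40, 4.6e-05). With the values set to 0 included, the counts were 8 higher and 1 lower at slice 1 day (25.6% and 24.3% of all genes), and 6 and none at 1 week (13.2% and 12.3%). In vitro and slice 3 weeks libraries held no neutrophil-marked cells, and their summed neutrophil list was 1.61 to 8.22 CPM.

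**Figure D3:**
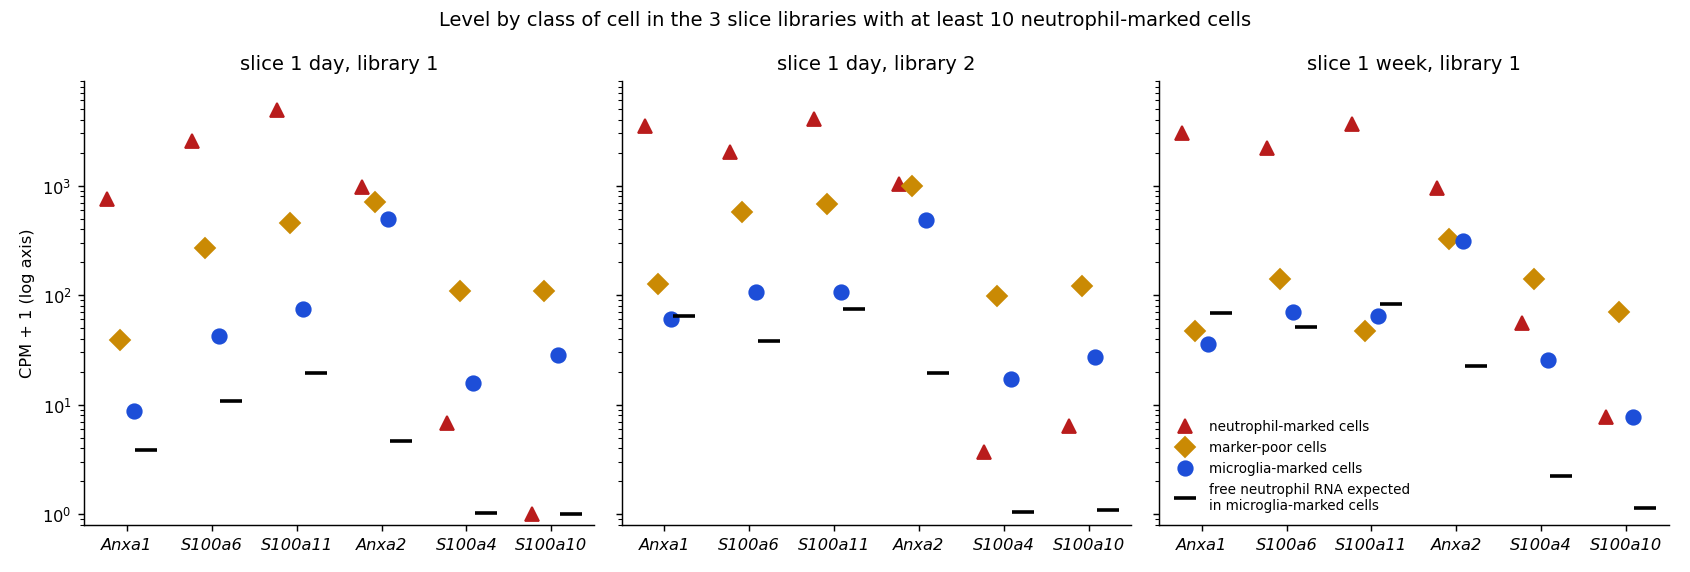
CPM + 1 on a log axis of 6 genes in neutrophil-marked (triangles), marker-poor (diamonds) and microglia-marked cells (circles), with the level free neutrophil RNA would give in the last (bars), for the 3 slice libraries with at least 10 neutrophil-marked cells. Anxa1, S100a6 and S100a11 are highest in neutrophil-marked cells, Anxa2 differs less between classes (978.8 against 495.7 CPM in the first slice 1 day library), and S100a4 and S100a10 are highest in marker-poor cells.

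**Figure D4:**
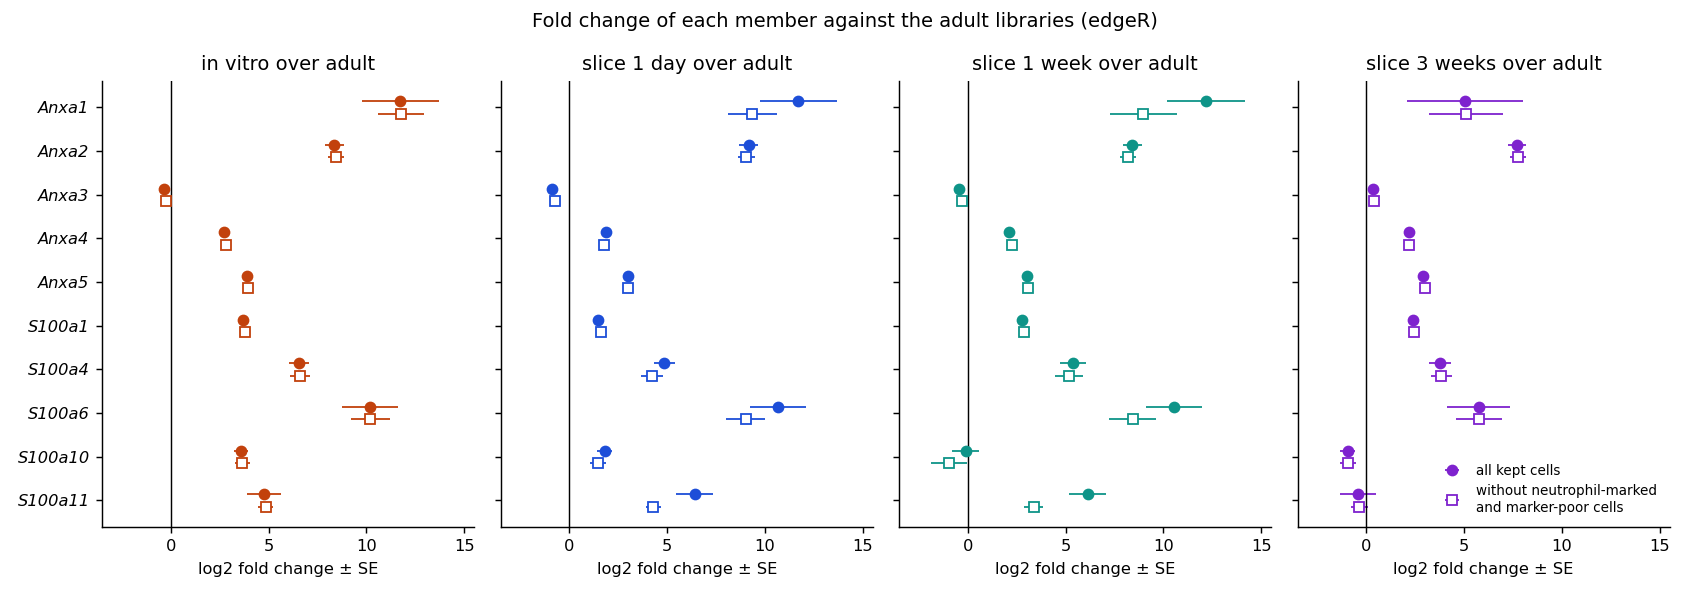
Log2 fold change over adult with its SE for each gene in the 4 cultured groups, for all kept cells (filled circles) and without neutrophil-marked and marker-poor cells (open squares). The squares fall below the circles for Anxa1, S100a6 and S100a11 at slice 1 day and 1 week and lie on them in vitro and at slice 3 weeks.

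Among slice ages the set split by direction. From 1 day to 3 weeks 4 of the 9 genes tested were lower and 2 higher, against 12.8% and 13.9% of all genes. Anxa3 rose by 1.22 ± 0.14 (adjusted p = 0.00027, edgeR) and S100a1 by 0.94 ± 0.14 (0.0012), though neither passed when UMIs were counted per cell. Lower were S100a11 (-6.82 ± 0.96, 0.00081), S100a6 (-4.91 ± 0.91, 0.0032), S100a10 (-2.76 ± 0.39, 0.00083) and Anxa2 (-1.47 ± 0.32, 0.0077). In microglia-marked cells the same 4 genes were lower and 2 higher (12.2% and 14.2% of all genes). The lower ones in that order were at -4.65 ± 0.40 (6.1e-05), -3.25 ± 0.60 (0.0026), -2.42 ± 0.42 (0.0020) and -1.29 ± 0.27 (0.0051). With free neutrophil RNA subtracted S100a11 (-3.63 ± 0.41), S100a6 (-2.77 ± 0.48), S100a10 and Anxa2 stayed lower. Anxa1, not tested, was at -6.67 ± 1.28 in all kept cells and -4.25 ± 0.73 in microglia-marked cells, and turned to 0.27 ± 1.03 after the subtraction, which set it to 0 in the second slice 1 day library.

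Between 1 day and 1 week S100a1 alone was called in all kept cells, 1.29 ± 0.16 higher (adjusted p = 0.0025, edgeR), where 4.91% of all genes were higher and 5.25% lower. The call was lost counted per cell (0.93, 0.13), in thinned cells (0.97, 0.11) and without cells with 3 neutrophil or 3 monocyte markers (1.46, 0.17). Without neutrophil-marked cells Anxa2 (-0.98 ± 0.28, 0.043) and S100a11 (-1.64 ± 0.38, 0.019) were called lower as well, as Anxa2 was with free RNA subtracted (-0.93 ± 0.27, 0.045). In microglia-marked cells neither passed (-0.87 ± 0.28, 0.073, and -0.91 ± 0.41, 0.19). Between 1 week and 3 weeks Anxa3 rose by 0.76 ± 0.14 (0.012), and S100a11 (-6.53 ± 0.95, 0.0048) and S100a6 (-4.79 ± 0.92, 0.017) were lower, against 2.23% and 3.49% of all genes. In microglia-marked cells the last 2 were at -3.74 ± 0.50 (0.0037) and -2.67 ± 0.74 (0.080). Anxa1, not tested, was at -7.15 ± 1.31 in all kept cells and -3.87 ± 1.04 in microglia-marked cells. With free neutrophil RNA subtracted S100a6 was at -1.16 ± 0.81 (0.50), while Anxa1 and S100a11 had been set to 0 in the first slice 1 week library. Without the first slice 1 week library, which leaves 1 library of 61 cells in that group, Anxa3 was at 0.77 (0.13), S100a11 at -2.97 (0.093) and S100a6 at -0.93 (0.83), and none was called.

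Side by side with the slices, in vitro microglia held the highest mean level of Anxa4, Anxa5, S100a1, S100a4 and S100a10 in all kept cells. In microglia-marked cells Anxa1 (146.2 and 239.1 TMM CPM), S100a6 (96.0 and 240.6) and S100a11 (106.9 and 153.6) had their highest mean there too. In vitro over slice 3 weeks the log2 values were 6.70 ± 1.28 for Anxa1, 5.18 ± 0.90 for S100a11, 4.54 ± 0.39 for S100a10, 4.44 ± 0.89 for S100a6 and 2.79 ± 0.38 for S100a4. They were 1.31 ± 0.14 for S100a1, 0.95 ± 0.16 for Anxa5, 0.65 ± 0.32 for Anxa2, 0.58 ± 0.20 for Anxa4 and -0.69 ± 0.13 for Anxa3. Over slice 1 day Anxa1 was 0.03 ± 0.92 in all kept cells and 2.43 ± 0.58 in microglia-marked cells. S100a11 moved from -1.64 ± 0.73 to 0.55 ± 0.32 and S100a6 from -0.47 ± 0.75 to 1.19 ± 0.53 in the same way. Over slice 1 week the values moved from -0.45 ± 0.96 to 2.81 ± 0.76 for Anxa1, from -0.35 ± 0.78 to 1.78 ± 0.65 for S100a6 and from -1.36 ± 0.74 to 1.47 ± 0.41 for S100a11. Of the border macrophage list all 6 genes were detected in vitro, with a sum of 2132 and 2270 CPM against 5.74 and 11.1 in the adult and 45.5 to 315.7 in the slices. Nearly all of it was Pf4 (2043 and 1992 CPM in vitro, 4.32 and 1.29 in the adult) and Mrc1 (382.6 and 341.3, against 4.4 and 3.3). Both were highest in vitro, as was Cbr2 at 8.06 and 9.49 CPM, against 0.44 and 0 in the adult. Cbr2 reached 7.68 in the second slice 1 week library. Cd163 and Lyve1 of the same list were at 0.31 to 1.24 CPM in vitro. They were higher at slice 1 day (2.10 and 1.55 for Cd163, 4.46 and 6.08 for Lyve1) and in the first slice 1 week library (5.93 and 4.94). F13a1 overlapped, at 40.4 and 30.7 CPM in vitro and 36.6 and 33.3 at slice 1 week. Their part in the in vitro values was not tested.

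In single cells the share of cells with a UMI was set beside that of the adult for Anxa2 and Anxa5. After thinning each microglia-marked cell to 1500 UMIs, Anxa5 had a UMI in 53.8% and 58.0% of in vitro cells, 33.4% to 39.0% of slice cells and 5.94% and 8.09% of adult cells. For Anxa2 the shares were 22.8% and 33.4% in vitro, 41.5% and 41.4% at slice 1 day, 30.0% and 21.6% at slice 1 week (of 110 and 51 cells), 17.6% and 22.5% at slice 3 weeks, and 0.20% and 0.07% in the adult. Exact 95% intervals in the last were 0.080% to 0.41% and 0.0091% to 0.27%. Without thinning 73.8% and 86.7% of in vitro cells and 45.5% of slice 3 weeks cells in both libraries had an Anxa2 UMI. No class of these cells is known to lack either gene, so the share that free RNA gives in the cultured libraries was not measured, and the shares are not read as expressing cells. The adult libraries cannot stand for it, and had median depths of 1858 and 3257 UMIs a cell before thinning against 12862 and 13986 in vitro.

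In vitro cells with at least 3 of 6 mitosis markers (194 and 385 microglia-marked cells) differed from the other in vitro cells in part of the set. S100a4 was at 98.2 and 194.5 CPM in them against 36.0 and 74.5, and S100a10 at 146.2 and 289.2 against 54.0 and 111.6. Anxa1 stood 2.08 and 2.26 times higher, S100a6 1.75 and 2.10 times and Anxa2 1.56 and 1.75 times. S100a1 was at 0.70 and 0.63 of the level of the other cells, and Anxa3, Anxa4, Anxa5 and S100a11 lay between 0.92 and 1.01. The 2 libraries gave the same order of sizes for the genes above 1.5, and no test was made over cells. At slice 1 day every gene of the set was lower in the 45 and 136 mitosis-marked cells than in the other microglia-marked cells of the same library. Anxa2 was at 246.2 and 270.1 CPM against 545.0 and 533.0. S100a10 was at 16.55 and 16.14 against 29.4 and 29.0, and S100a4 at 12.4 and 7.45 against 15.1 and 18.3.

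**Figure D5:**
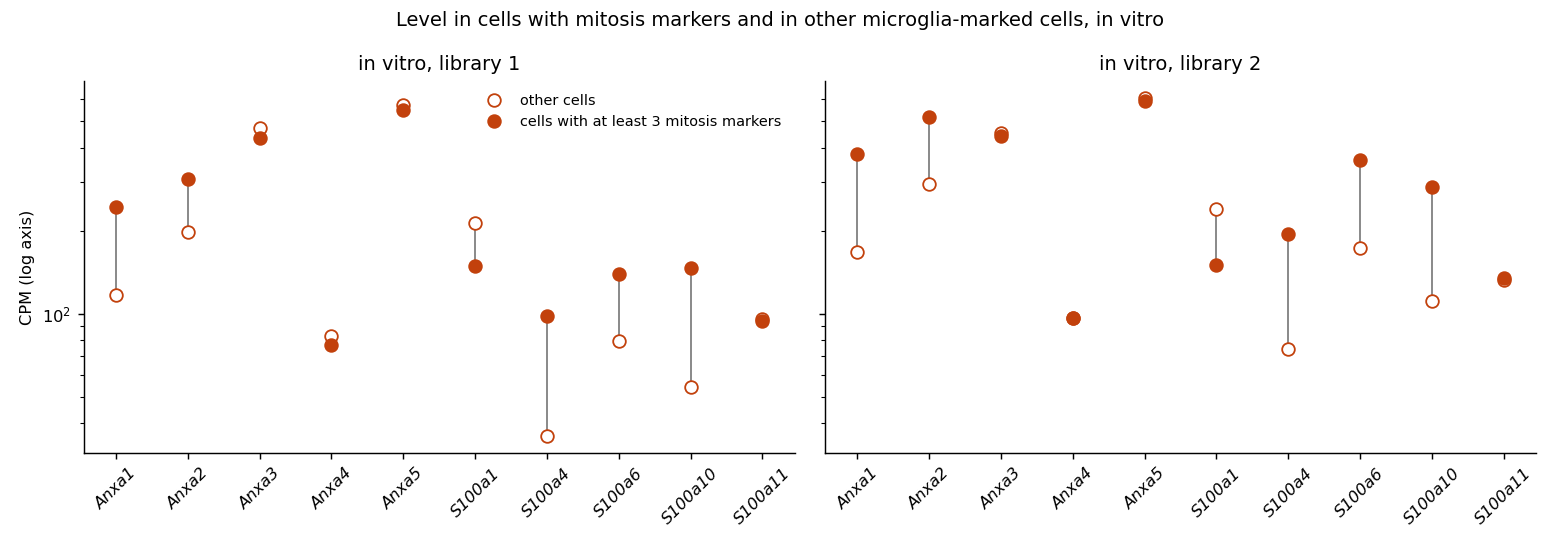
CPM on a log axis of the 10 genes in in vitro cells with at least 3 mitosis markers (filled) and in the other microglia-marked cells (open) of the 2 libraries. Anxa1, Anxa2, S100a4, S100a6 and S100a10 lie higher in the mitosis-marked cells of both libraries, S100a1 lies lower, and the other 4 hardly differ.

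Across thinned cells of a library, which share its depth and preparation, the pair of S100a4 and S100a6 had the highest r of the set in both slice 1 day libraries and 1 in vitro library, and not in the others. Its Pearson's r was 0.44 and 0.28 over 2396 and 2655 in vitro cells and 0.35 and 0.39 over 369 and 792 slice 1 day cells, but 0.05 and 0.03 over 1144 and 3638 slice 3 weeks cells. Anxa2 and S100a6 gave 0.28 in both in vitro libraries. In GENCODE M21 (mm10) S100a4 (chr3:90603771-90606045) and S100a6 (chr3:90612882-90624181) lie on the plus strand of chromosome 3, 6836 bases apart, with S100a1 nearby on the minus strand (chr3:90511034-90514392). S100a11 (chr3:93520488-93526287) and S100a10 (chr3:93555080-93564643) lie together on the plus strand of the same chromosome. A gene model on the same strand, Gm42674, overlaps S100a4 in that annotation, so its UMIs may be divided. The annexins are spread, with Anxa1 at chr19:20373428-20390944 (minus), Anxa2 at chr9:69453620-69491795 (plus), Anxa3 at chr5:96793339-96845966 (plus), Anxa4 at chr6:86736840-86793584 (minus) and Anxa5 at chr3:36448923-36475894 (minus).

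Over the 10 libraries, the genes most like each member by Pearson's r of log2(CPM + 1), out of 5265 tested genes with a mean of at least 20 CPM, were Plp2 (0.996) and Tpd52 (0.995) for Anxa2, Csrp1 (0.995) and Vat1 (0.992) for Anxa5, and Dap (0.994) and Myo5a (0.977) for Anxa4. For S100a1 they were Ctla2a and Stom (both 0.988), for S100a4 Dpep2 (0.990) and Sh3bgrl3 (0.982), and for Anxa3 Vkorc1 and Naglu (both 0.976). The remaining pairs were F630028O10Rik (0.960) and Actn1 (0.957) for Anxa1, Tmsb10 (0.986) and Msrb1 (0.974) for S100a6, D8Ertd738e (0.961) and Lamtor5 (0.948) for S100a10, and 2010005H15Rik (0.983) and Polr2i (0.968) for S100a11. 2010005H15Rik was at 0 in both adult libraries, at 20.5 and 44.9 CPM in vitro, and at 328.9 and 625.9 at slice 1 day. It was also among the 10 leading genes of neutrophil-marked cells in the first slice 1 week library (1876 CPM against 22.5 in microglia-marked cells), and the part of such cells in this likeness was not tested. In microglia-marked cells the r of these pairs was 0.933 for S100a11 and 2010005H15Rik, 0.832 and 0.893 for the S100a10 pairs, and 0.921 to 0.997 for the others. These values rest on the same libraries and the same adult to culture contrast.

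Other annexins were higher in part. Of 7 listed, 4 were tested, and 4, 2, 3 and 2 of them were higher than adult in vitro and at slice 1 day, 1 week and 3 weeks, with none lower. Of all genes 22.4%, 24.9%, 15.0% and 17.9% were higher in these comparisons and 28.5%, 25.3%, 13.6% and 17.5% lower, and these shares also apply to the lists that follow. In microglia-marked cells the counts of this list were 4, 2, 3 and 2 as well. Among those with a mean log2 CPM of 3 or more Anxa6 rose most in vitro (31.5 and 32.6 CPM in the adult, 96.5 and 109.1 in vitro, log2 1.68 ± 0.15, adjusted p = 7.0e-06 by edgeR), and Anxa7 rose most at slice 3 weeks (0.65 ± 0.14, 0.0045). Of 11 other S100 genes 6 were tested, with 1 higher and 1 lower in vitro, and 3, 3 and 2 higher at the successive slice ages. S100a8 and S100a9, whose UMIs mark neutrophils here, belong to this list. In microglia-marked cells 5 were tested and 2, 3 and 1 were higher at those ages, S100a8 and S100a9 among them at 1 day and 1 week. S100a13 rose from 74.0 and 66.5 CPM in the adult to 179.0 and 195.0 in vitro (1.41 ± 0.21, 0.00023).

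Partners and receptors moved in both directions. Of 14 listed genes 10 were tested, and 5 were higher and 1 lower in vitro, where 22.4% and 28.5% of all genes were. Slice 1 day gave 6 and 1 (24.9% and 25.3%), 1 week 4 and 1 (15.0% and 13.6%), and 3 weeks 3 and 0 (17.9% and 17.5%). In microglia-marked cells 11 were tested, with 7 higher and 1 lower at slice 1 day and 3 and 1 at 1 week. Ahnak, the giant scaffold that the Anxa2 and S100a10 complex binds, had no adult UMI and 31.2 and 58.1 CPM in vitro. With UMIs pooled by group, in vitro was 325-fold above what 3 counts over the adult group would give. At slice 3 weeks it had 0.65 and 3.91 CPM. The pooled value there was 21.8-fold above that adult level and rested mostly on the second library. Pla2g4a, the cytosolic phospholipase that annexins can hold from its lipids, fell in vitro from 61.8 and 80.4 to 25.4 and 20.6 CPM (-1.62 ± 0.16, adjusted p = 1.5e-05). Fpr1 and Fpr2, the receptors of Anxa1, were also called higher in vitro and at slice 1 day and 1 week, and are named here after their values were seen. Neutrophil-marked cells held 39.8% and 47.3% of the Fpr1 UMIs and 62.6% and 67.2% of the Fpr2 UMIs at slice 1 day. In the first slice 1 week library they held 83.9% and 90.3%, which left 5 and 3 UMIs in microglia-marked cells. The second slice 1 week library had no Fpr1 UMI, and the adult held 2 Fpr1 UMIs and 1 Fpr2 UMI.

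Several genes of plasma membrane repair, in which annexins take part, rose in culture. Of 14 listed, 11 were tested, and 7, 7, 6 and 5 were higher in the 4 comparisons against 22.4%, 24.9%, 15.0% and 17.9% of all genes, with 2 lower at slice 1 week and none elsewhere. In microglia-marked cells 8, 7, 5 and 5 were higher, with 1 lower at slice 1 week. Myof, the myoferlin of membrane fusion, had no adult UMI. It had 21.1 and 25.0 CPM in vitro and 3.75 and 4.28 at slice 3 weeks. With UMIs pooled by group these were 165-fold and 29.6-fold above what 3 counts over the adult group would give. Median log2 fold changes of the tested genes were 1.08, 0.78, 0.60 and 0.43.

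Glucocorticoid-induced genes, a group to which Anxa1 belongs, included both rises and falls. Of 9 tested out of 10, 2 were higher and 3 lower in vitro, close to the 22.4% and 28.5% of all genes. Slice 1 day gave 3 and 4 (24.9% and 25.3%), 1 week 0 and 2 (15.0% and 13.6%), and 3 weeks 1 and 1 (17.9% and 17.5%). In microglia-marked cells 7 were tested, with 2 higher and 4 lower at slice 1 day and 0 and 2 at 1 week. Sgk1 fell in vitro from 326.1 and 348.8 to 54.6 and 42.4 CPM (-2.80 ± 0.17, adjusted p = 5.0e-07, edgeR), and Dusp1 rose from 2.56 and 5.54 to 19.2 and 10.52 (1.95 ± 0.43, 0.0032). At slice 3 weeks Errfi1 was lower, at 10.48 and 11.7 CPM against 22.8 and 35.6 (-1.38 ± 0.23, 0.0011).

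The 2 study labels of the series split 1 adult and 1 slice 3 weeks library from the other 8, so slice 3 weeks and adult could be compared within each label. On the log2(CPM + 1) scale Anxa2 was 6.34 and 6.95 above adult, Anxa5 3.19 and 2.61, S100a1 2.40 and 2.28, S100a4 3.09 and 2.44, and Anxa4 1.98 and 2.17. S100a6 was 2.37 and 3.46 above. S100a10 was lower by -1.33 and -0.45, and S100a11 gave -0.66 and 0.03. The other comparisons with the adult had no culture library under the first label.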

How the data were processed

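Cells were sorted by FACS and their 3' transcript ends sequenced with the 10x v2 kit. The deposited tables hold counts: whole-number UMIs per gene and cell, made by the authors with Cell Ranger 1.3.0 on mm10 according to the submitters' processing notes. The study's methods state default Cell Ranger settings and a combined table from its aggregate function. Of 19637 barcodes, 19059 were kept (at most 5% mitochondrial UMIs, at least 400 genes, at most 30000 UMIs, after the study's methods). No doublet caller was run. Rows of the 51 repeated symbols were summed.

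UMIs were summed per library, since cells are not replicates. edgeR 4.0.16 (glmQLFit, TMM, filterByExpr with a minimum of 10) was fitted to all 10 libraries by group, and 7 comparisons were tested with Benjamini-Hochberg adjustment over 12157 genes. Standard errors were taken as the log2 fold change over the root of F. With 2 libraries a group an exact permutation test could not go below p = 0.333 and was not used. On counts simulated for in vitro over adult (11674 genes), 100% of 4-fold and 57% of 2-fold changes were recovered with 3 false calls. Total UMIs were 385373 to 39689540, which limits slice 1 week most: 3 counts over a group equal 2.14 CPM there and 0.0449 CPM in vitro.

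The genes and lists were chosen with earlier results of these data known. List genes named were, per list, those called in vitro or at slice 3 weeks over adult with the largest rise or fall, at a mean log2 CPM of 3 or more. The 2 genes most like each member were named by correlation. Alternatives were another scaling, tool, filter, sample set and cell set. DESeq2 1.42.0 was one. Cell classes (2% and 0.5% limits), their removal and the subtraction of free neutrophil RNA were added after seeing the data. Same-numbered libraries did not deviate together throughout (r from -0.135 to 0.123 over pairs of groups), so no pairing was assumed.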

Additional observations from a re-analysis of the deposited data

How the results depend on the processing

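Of the called fold changes 2 turned, and with them Anxa1, which was not tested: S100a11 at slice 1 week over adult (-0.124) and Anxa1 at slice 3 weeks over 1 day (0.267) with free neutrophil RNA subtracted (both with values set to 0 by the subtraction), and Anxa3 at slice 1 day over adult (0.665) counted as UMIs per cell. Among values over adult that were not called, and in vitro over slice 3 weeks, these turned. Counted per cell, Anxa3 was 1.821 in vitro (adjusted p = 6.9e-06 by edgeR) and 0.766 at 1 week over adult, and 0.391 in vitro over 3 weeks. S100a10 was then 1.07 at 1 week and 0.053 at 3 weeks over adult, and S100a11 0.61 at 3 weeks. S100a10 at 1 week was 0.11 with the 8 libraries of 1 study label, 0.16 without mitosis-marked cells, 0.71 in thinned cells and -0.332 to 0.157 with 1 library left out, and S100a11 at 3 weeks was 0.032 with those 8 libraries. In vitro over slice 1 week, Anxa1, S100a6 and S100a11 turned to 1.47 to 2.81 in microglia-marked cells, S100a6 and S100a11 over slice 1 day turned there to 1.19 and 0.55, and these turned under other alternatives too. Anxa1 over 1 day (0.03) turned to -0.77 to -0.07 under 5 alternatives, Anxa2 over 1 week (-0.06) to at most 0.92 and Anxa3 over 1 week (0.07) to -0.03 and -0.01. Library size alone shifted the median of all genes over adult by -0.12 to -0.30.

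Counts of members moved by over 1.5 times as follows. With library size alone 1 member was called lower in vitro, at 1 week and at 3 weeks over adult. Without a filter 1 was lower at 3 weeks over adult and 2 at 1 week over 1 day. Counted per cell, none was lower at 1 day over adult, none higher and 1 lower at 1 week over 1 day, none higher at 3 weeks over 1 week and none higher at 3 weeks over 1 day. DESeq2, and fits of the compared groups alone, gave 1 lower at 1 week over 1 day, and the latter none higher at 3 weeks over 1 week. Without cells with 3 neutrophil or 3 monocyte markers, which removed the whole first slice 1 week library and left 6 cells of the second slice 1 day library, none was higher at 1 week over 1 day and none higher or lower at 3 weeks over 1 week. Thinning left none higher at 1 week over 1 day. Without neutrophil-marked cells 2 were lower there, and 2 with free RNA subtracted. At 3 weeks over 1 week 1 was lower in microglia-marked cells and 0 after subtraction, these counts including the values set to 0. The 8 libraries of 1 study label gave 1 lower there too. A smaller move was 5 lower at 3 weeks over 1 day under 9 alternatives that keep all libraries or 1 study label (S100a4 added). Leaving out 1 library gave 8 to 8 higher in vitro, 8 to 8 at 1 day, 6 to 7 at 1 week and 5 to 6 at 3 weeks over adult, 0 to 1 lower at 3 weeks over adult and at 1 week over 1 day, 0 to 1 higher and 0 to 3 lower at 3 weeks over 1 week, and 4 to 5 lower at 3 weeks over 1 day. The replicate block left the counts of all 7 comparisons as they were, for example 8 higher in vitro and 6 at 3 weeks. Same-numbered slice 1 day and 3 weeks libraries deviated oppositely (r = -0.135), and a block with crossed numbers gave 2 higher and 5 lower between them. Of 17 uncalled differences between slice ages, 11 changed sign and 5 passed under some alternative. The cause of these changes was not tested. Depth limits slice 1 week most.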
